A study of Mus musculus with 9 samples.

Results

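Circadian clock genes were followed in spinal cord motoneuron RNA of mice after spinal cord injury with and without electrical stimulation. The members are the 10 genes whose symbol in the deposited table is Per1, Per2, Per3, Nr1d1, Nr1d2, Dbp, Tef, Ciart, Arntl or Npas2, out of 55401 genes, and each symbol matched 1 row. All mice were wild type (WT). The SBES group had a spinal cord injury and synergistic bidirectional electrical stimulation, the untrained group had the injury without stimulation, and the sham group carries the treatment label None. Each group has 3 libraries from 3 mice, collected 4 weeks after injury. SBES libraries 1, 2 and 3 were stimulated at 10, 15 and 20 Hz, so a frequency has 1 library and a difference between single SBES libraries cannot be told apart from a difference of frequency. Neurons with a fluorescent tracer label were aspirated from spinal cord slices and profiled by Smart-seq2, which copies whole transcripts from very little RNA. The labels tie no library to a mouse and give neither age, sex, number of neurons per library nor the time of day of collection. A group difference of clock genes therefore cannot be told apart here from a difference in time of collection. The p-values below measure the spread between these libraries, which may be technical in part.

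The mammalian clock is a feedback loop of transcription. ARNTL (also called BMAL1) pairs with CLOCK or with its relative NPAS2 and activates genes through E-box sequences, among them the Per genes, Nr1d1, Nr1d2, Ciart and Dbp. PER proteins, together with CRY proteins, and CIART (also called CHRONO) repress this activator, while the nuclear receptors NR1D1 and NR1D2 (REV-ERB alpha and beta) repress Arntl and Npas2 through elements called RREs. DBP and TEF are transcription factors of the PAR bZIP family that carry the rhythm to output genes through D-box sequences. Per1 is also an acutely inducible gene that cAMP signalling and glucocorticoids switch on in many tissues.

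Promoter windows of RefSeq on build GRCm38.p6, the assembly called mm10, were examined for letter strings of such elements. A window runs from 250 bases before to 50 bases after an annotated start, 300 bases in all. Of the 10 members 9 have 1 or more, 12 windows in all, and Per2 has none here. These were searched on both strands for an E-box (CACGTG), a D-box (TTATGTAA or TTACGTAA), an RRE (ANTAGGTCA or ANTGGGTCA) and a cAMP response element (TGACGTCA). Windows of Per1, Ciart, Per3 and Arntl are shown, with the matched letters in capitals, because they hold the E-box, D-box and RRE matches of members described below. The Per1 window lies at chr11:69098699-69098998 on the plus strand, that of Ciart at chr3:95882179-95882478 on the minus strand, that of Per3 at chr4:151044616-151044915 on the minus strand and that of Arntl at chr7:113207261-113207560 on the plus strand.
Per1: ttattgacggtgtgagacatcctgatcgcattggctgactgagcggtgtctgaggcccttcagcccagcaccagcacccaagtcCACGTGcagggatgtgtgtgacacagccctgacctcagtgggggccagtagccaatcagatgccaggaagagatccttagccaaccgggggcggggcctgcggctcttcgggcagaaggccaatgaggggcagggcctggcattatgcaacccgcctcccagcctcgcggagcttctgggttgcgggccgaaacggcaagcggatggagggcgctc
Ciart: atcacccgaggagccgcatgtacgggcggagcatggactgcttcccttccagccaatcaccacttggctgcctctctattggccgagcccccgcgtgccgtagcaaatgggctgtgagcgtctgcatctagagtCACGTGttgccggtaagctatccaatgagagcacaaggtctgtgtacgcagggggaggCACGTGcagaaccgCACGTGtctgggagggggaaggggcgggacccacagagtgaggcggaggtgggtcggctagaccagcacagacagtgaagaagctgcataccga
Per3: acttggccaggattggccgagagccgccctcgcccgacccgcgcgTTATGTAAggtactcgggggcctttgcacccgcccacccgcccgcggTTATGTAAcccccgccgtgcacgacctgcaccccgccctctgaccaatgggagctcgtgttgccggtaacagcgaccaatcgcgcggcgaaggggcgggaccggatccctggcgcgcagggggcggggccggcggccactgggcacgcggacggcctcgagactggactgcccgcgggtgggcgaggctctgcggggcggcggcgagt
Arntl: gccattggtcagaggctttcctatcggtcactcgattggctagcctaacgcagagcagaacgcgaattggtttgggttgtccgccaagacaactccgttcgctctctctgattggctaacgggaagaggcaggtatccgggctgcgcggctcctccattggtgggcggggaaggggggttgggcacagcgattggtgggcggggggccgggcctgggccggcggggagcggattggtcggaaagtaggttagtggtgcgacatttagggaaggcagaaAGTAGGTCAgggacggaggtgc

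The E-box of Per1 begins 166 bases before its start, those of Ciart begin 116, 58 and 44 bases before it, and the D-boxes of Per3 begin 205 and 158 bases before it. The RRE of Arntl begins at base 29 after its start. Both Tef windows hold an E-box, 127 and 138 bases before their starts. No match lay in the windows of Nr1d1, Nr1d2, Dbp or Npas2, in the second window of Per1 or in the other window of Arntl, and no matches overlapped. Of all 32851 windows in the table, 7.15% hold this E-box, 1.06% the D-box, 1.45% the RRE and 1.79% the cAMP response element, which no member's window held. A match is a string of letters, and binding was not measured. Sequence outside these windows was not searched, so a window without a match does not show that its gene lacks the element.

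Total counts ran from 11821145 to 17675948 per library. The table's columns for untrained 1, 2 and 3 and SBES 1 carry names that fit their labels only by elimination, so results on them depend on this assignment. The replicate 1 libraries stood apart: the nuclear RNA Malat1 stood at 6279 CPM in SBES 1, 15268 in untrained 1 and 20798 in sham 1, against 465 to 1487 CPM in the other libraries. Mitochondrially encoded genes took 18.6% of the counts of SBES 1. CPM here is a count scaled to the library total after TMM scaling, which adjusts for differences in RNA composition. All 10 motor neuron markers, such as the acetylcholine genes Chat and Slc18a3, had counts in all 9 libraries, with a summed level of 715 to 1962 CPM in SBES, 606 to 935 in untrained and 1400 to 1936 in sham. The 8 oligodendrocyte markers summed to 46990 to 76950 CPM in SBES, 38230 to 57750 in untrained and 49270 to 108800 in sham, far above the motor neuron markers. Of all marker lists, counts of 0 occurred only among leukocyte genes. Fewer cells of a type and less RNA per cell cannot be told apart in such libraries.

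Per length, Ciart, Nr1d1, Nr1d2 and the PAR bZIP outputs were the most abundant members, and the Per genes and the activators were scarce. Ciart had the highest mean, 13.1 ± 3.59 FPKM (counts scaled to exonic length and library total; SD over all 9 libraries), followed by Dbp at 11.7 ± 5.63 and Nr1d1 at 10.7 ± 3.27 FPKM. Ciart exceeded Dbp in 5 of the 9 libraries and Dbp exceeded Nr1d1 in 4, so these neighbours did not differ beyond their spread. Tef averaged 6.62 ± 2.03 FPKM and Nr1d2 3.93 ± 0.896 FPKM, and Tef lay above Nr1d2 in 8 of 9 libraries. Nr1d2 lay above Per3 in each of the 9 libraries. Per3 (0.932 ± 0.243 FPKM), Per1 (0.807 ± 0.542) and Arntl (0.631 ± 0.114) overlapped one another. Per2 followed at 0.412 ± 0.126 FPKM. Npas2 was the lowest member at 0.214 ± 0.101 FPKM, with 6 to 26 counts per library. All 10 members passed the filter on low counts.

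**Figure D1:**
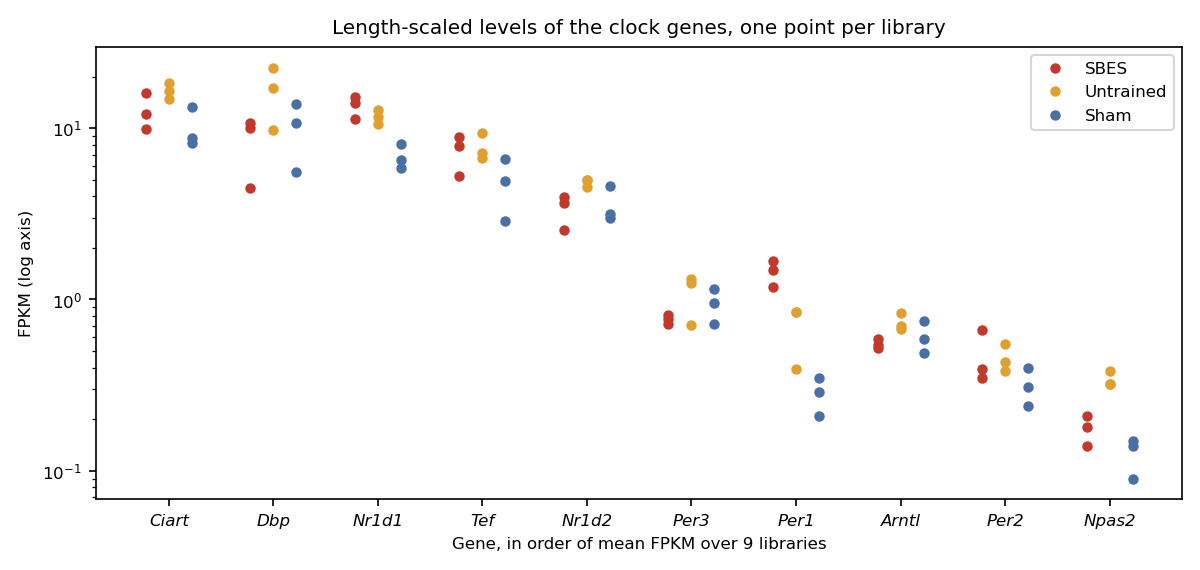
Deposited FPKM of each clock gene on a log axis, 1 point per library, with SBES, untrained and sham side by side and genes in order of their mean over 9 libraries. Ciart, Dbp and Nr1d1 lie near 10 FPKM, and Per1 is the member whose groups lie farthest apart, at 1.18 to 1.67 FPKM in SBES, 0.39 to 0.85 in untrained and 0.21 to 0.35 in sham.

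Per1 (ENSMUSG00000020893, chr11:69095217-69109960), a repressor of the loop and an acutely inducible gene, was the member with the largest difference. Its CPM was 12.35, 7.55 and 6.55 in SBES 1, 2 and 3, 2.11, 4.06 and 4.34 in untrained 1, 2 and 3, and 1.63, 1.71 and 1.58 in sham 1, 2 and 3. The groups did not overlap, with every SBES library above every untrained one and every untrained library above every sham one. Behind these levels lie 111, 109 and 106 counts in SBES, 32, 73 and 72 in untrained and 15, 27 and 29 in sham. The means were 8.81 ± 3.10 CPM in SBES, 3.50 ± 1.21 in untrained and 1.64 ± 0.0667 in sham (SD, n = 3 each). Per1 rose in SBES over sham, with a log2 fold change of 2.41 (SE 0.38, 95% interval 1.59 to 3.24; edgeR quasi-likelihood test, Benjamini-Hochberg adjusted p = 0.0285 over 15893 genes). The call ended without SBES 3 (adjusted p = 0.0639), sham 1 (0.0585), sham 2 (0.119) or sham 3 (0.186), at log2 fold changes of 2.38 to 2.59. Both limma fits on FPKM ended it too. Leaving out all replicate 1 libraries kept the call, at 2.10 (adjusted p = 0.00433), but that setting called more genes in all than the reported fit.

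Neither SBES over untrained nor untrained over sham passed for Per1. SBES over untrained gave a log2 fold change of 1.32 (SE 0.36; adjusted p = 0.749) and untrained over sham gave 1.09 (SE 0.38; adjusted p near 1), both with no overlap between libraries. On the deposited FPKM, which has no TMM scaling, the order of the 3 groups was also free of overlap. Over all genes tested, 0.352% had SBES above untrained above sham without overlap on the CPM scale. Markers of endothelium and pericytes moved in the same direction as Per1 between SBES and sham: the summed level of the 8 markers was 587 to 859 CPM in SBES, 521 to 767 in untrained and 320 to 559 in sham, and 7 of 8 were higher in SBES than in sham. Ly6c1 was the largest part of this sum, averaging 470 CPM in SBES, 301 in untrained and 198 in sham. Cldn5, the next by mean, averaged 117 CPM in SBES and 109 in sham, with overlapping libraries. The part of these markers in the Per1 result was not tested.

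No difference of the other Period genes passed. Per2 (chr1:91415982-91459324) stood at 5.12, 2.08 and 2.04 CPM in the SBES libraries, at 2.11, 2.78 and 2.29 in untrained and at 2.501, 2.03 and 1.36 in sham. SBES 1 lay above the other 8 libraries, which overlapped. SBES over untrained gave a log2 fold change of 0.33 (95% interval -0.60 to 1.26), which was -0.22 without SBES 1. Per3 (chr4:151003652-151044665) stood at 9.79, 7.06 and 6.79 CPM in SBES, 11.3, 10.9 and 6.21 in untrained and 12.5, 9.63 and 6.64 in sham, with wide overlap. Its log2 fold change was -0.28 in SBES over sham (95% interval -0.99 to 0.43). The log2 ratio of Per1 to Per3 counts within a library, which no scaling touches, was 0.34, 0.10 and -0.05 in SBES, -2.42, -1.42 and -0.52 in untrained and -2.94, -2.49 and -2.07 in sham.

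**Figure D2:**
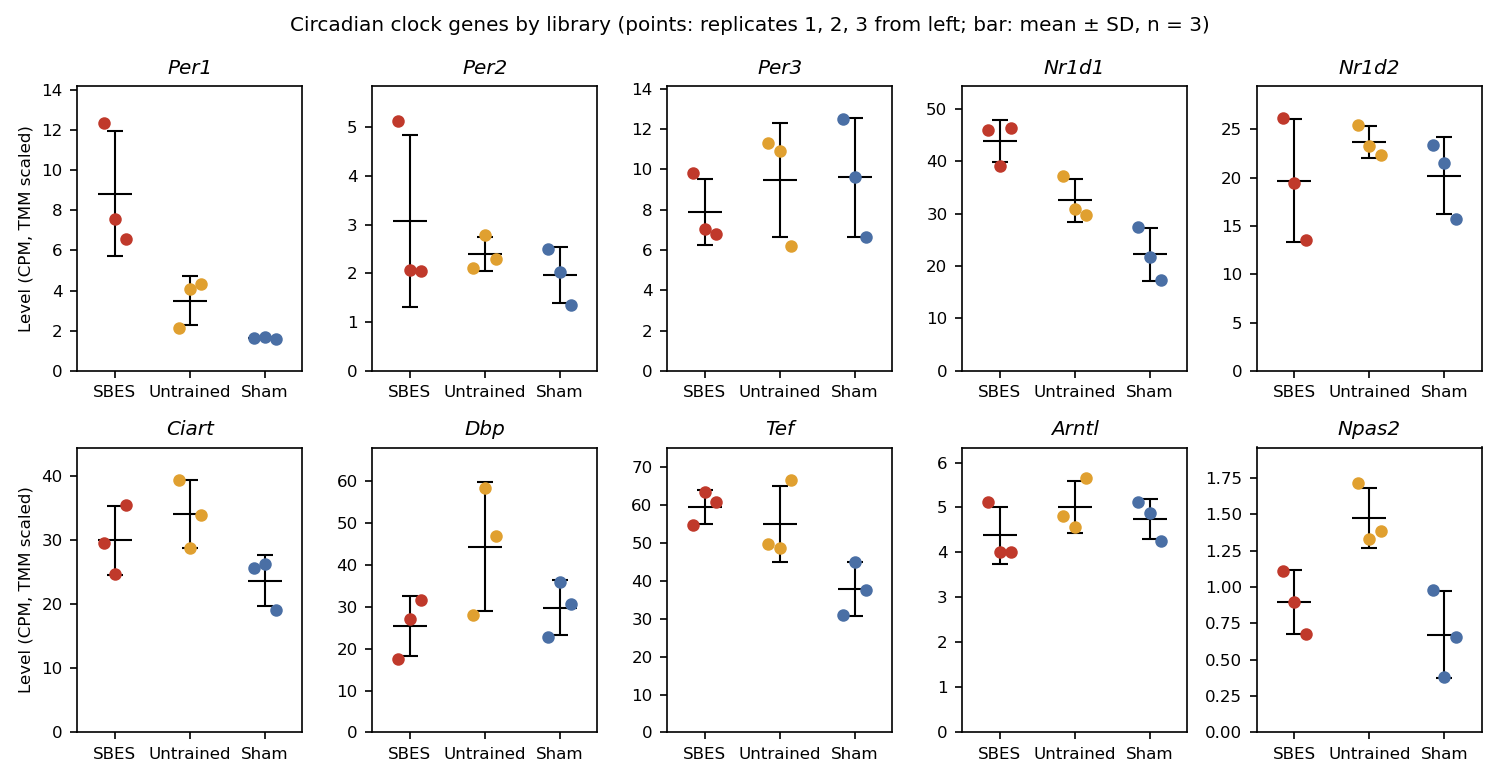
TMM-scaled CPM of the 10 clock genes, 1 panel per gene, with the SBES, untrained and sham libraries as points (replicates 1, 2 and 3 from left) and the mean ± SD as bars (n = 3). Per1 and Nr1d1 step down from SBES through untrained to sham, Npas2 is highest in untrained, and Arntl differs little between groups.

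Nr1d1 (ENSMUSG00000020889, chr11:98767932-98775333), the repressor of Arntl, followed the same order as Per1 with a smaller range. Its levels were 45.95, 39.1 and 46.3 CPM in SBES 1, 2 and 3, 37.2, 30.8 and 29.6 CPM in untrained and 27.5, 21.8 and 17.3 CPM in sham. The groups did not overlap on this scale, with means of 43.8 ± 4.05 CPM in SBES, 32.5 ± 4.04 in untrained and 22.2 ± 5.11 in sham (SD, n = 3 each), although on the deposited FPKM SBES 1 (11.35) lay below untrained 1 (12.71) and untrained 2 (11.61). The log2 fold change was 0.98 in SBES over sham (SE 0.23, 95% interval 0.48 to 1.48; edgeR adjusted p = 0.113), 0.43 in SBES over untrained (SE 0.23) and 0.55 in untrained over sham (SE 0.23). In SBES over sham the gene passed with the replicate block (1.00, adjusted p = 0.0461), with DESeq2 (0.999, adjusted p = 0.0078), without the filter on low counts (1.01, adjusted p = 0.044) and without all replicate 1 libraries (1.13, adjusted p = 0.0126). Each of these settings also called more genes in all than the reported fit, DESeq2 for instance 281 against 55. The last left fewer libraries per group. Nr1d1 shares 263 exonic bases, 8.55% of its exonic length, with the thyroid hormone receptor gene Thra on the other strand, and the strand setting of the counting is not given in the sources used here. Reads from that stretch cannot be assigned, and Thra stood at 47.6 ± 4.17 CPM in SBES, 37.1 ± 3.91 in untrained and 33.2 ± 8.74 in sham (SD, n = 3 each; log2 fold change 0.52, SE 0.23, in SBES over sham).

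Nr1d2 (chr14:18204054-18239127), the paralogue of Nr1d1, stood at 26.15, 19.4 and 13.5 CPM in SBES, 25.5, 23.3 and 22.3 in untrained and 23.4, 21.6 and 15.7 in sham. The groups overlapped, and SBES over sham gave a log2 fold change of -0.04 (95% interval -0.62 to 0.54). On the FPKM scale its SBES libraries (2.55 to 3.95) lay below the untrained ones (4.55 to 4.99). Ciart (chr3:95878503-95882251), a repressor of the ARNTL complex, stood at 29.5, 24.7 and 35.4 CPM in SBES, 39.3, 28.7 and 33.8 in untrained and 25.6, 26.2 and 19.1 in sham. Every untrained library was above every sham library, while SBES overlapped both. The log2 fold change of Ciart was 0.52 in untrained over sham (SE 0.23) and -0.18 in SBES over untrained (SE 0.23), and neither passed.

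Neither PAR bZIP factor passed in a comparison. Dbp (chr7:45705088-45710203) stood at 17.6, 27.1 and 31.7 CPM in SBES, 27.9, 58.4 and 46.8 in untrained and 22.7, 35.9 and 30.8 in sham. Untrained 2 and 3 were the highest, and untrained 1 lay within the range of the other groups. The log2 fold change was -0.80 in SBES over untrained (SE 0.31, 95% interval -1.48 to -0.12; edgeR adjusted p = 0.914) and 0.57 in untrained over sham (SE 0.31), so no difference of Dbp passed. Its exons share 539 bases, 18% of its exonic length, with Sphk2 on the other strand, a sphingosine kinase gene at 19.4 ± 6.79 CPM in SBES, 16.6 ± 3.96 in untrained and 20.0 ± 3.68 in sham. Tef (chr15:81802421-81826863) stood at 54.6, 63.4 and 60.7 CPM in SBES, 49.75, 48.6 and 66.6 in untrained and 31.0, 45.1 and 37.5 in sham. Libraries of both injured groups lay above all sham libraries. The log2 fold change of Tef was 0.65 in SBES over sham (SE 0.22; edgeR adjusted p = 0.329) and 0.54 in untrained over sham (SE 0.22), and on FPKM SBES 1 (5.28) lay below sham 2 (6.58).

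The activators were low in every group. Arntl (ENSMUSG00000055116, chr7:113207465-113314126) stood at 5.12, 4.02 and 4.01 CPM in SBES, 4.82, 4.56 and 5.66 in untrained and 5.11, 4.88 and 4.25 in sham. The groups overlapped on this scale, and the SD over 9 libraries of log2(CPM + 1), 0.141, lay at percentile 1.33 of all genes tested. The added 1 narrows this spread for low genes such as Arntl, and the rank is over genes of all levels. Its log2 fold change was -0.20 in SBES over untrained (95% interval -0.80 to 0.40), -0.12 in SBES over sham (-0.72 to 0.48) and 0.08 in untrained over sham (-0.51 to 0.68). On FPKM, without TMM scaling, SBES lay at 0.52 to 0.59 and untrained at 0.67 to 0.83, so the separation of these groups depends on the scale. Npas2 (chr1:39193731-39363236), the partner of ARNTL, stood at 1.11, 0.90 and 0.68 CPM in SBES, 1.72, 1.33 and 1.39 in untrained and 0.98, 0.38 and 0.65 in sham. Untrained libraries lay above all others on both scales, an order that 0.604% of genes tested had, and at most 26 counts stand behind a value. The log2 fold change of Npas2 was -0.74 in SBES over untrained (SE 0.46) and 1.17 in untrained over sham (SE 0.47), with no call.

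In tissues with a running clock, Nr1d1 and Dbp peak at another phase than Arntl, and the ratio of their counts within a library needs no scaling. The log2 ratio of Nr1d1 to Arntl counts was 3.17, 3.28 and 3.53 in SBES, 2.95, 2.76 and 2.39 in untrained and 2.43, 2.16 and 2.03 in sham. SBES libraries were above the rest and untrained 3 was just below sham 1. For Dbp to Arntl the log2 ratio was 1.78, 2.76 and 2.98 in SBES, 2.53, 3.68 and 3.05 in untrained and 2.15, 2.88 and 2.86 in sham, and all groups overlapped. SBES 1 had the lowest value and untrained 2 the highest. Over the 45 pairs of members, Pearson's r of log2(CPM + 1) across the 9 libraries ran from -0.56 to 0.80 with a median of 0.26. With group means removed it ran from -0.85 to 0.83 with a median of 0.10, and the pairs share libraries and their depth. Within groups, members spread to different degrees, with the pooled SD of Dbp on the log2 scale, 0.434, at percentile 74.7 of genes tested and that of Nr1d1, 0.223, at percentile 17.5.

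SBES over sham asks what injury with stimulation changed against sham mice. Of the 10 members 1 rose, Per1, and 0 fell in the edgeR test, which called 0.346% of the genes tested. An unadjusted p under 0.05 was reached by 3 members, Per1, Nr1d1 and Tef, and by 9.31% of genes. The same 3 members had every SBES library above every sham library, as had 7.1% of genes, and 0 had every SBES library below, as had 6.74% (13.8% in either direction). With the replicate block edgeR called 132 genes instead of 55, and 2 members, Per1 and Nr1d1. The median log2 fold change of the members was 0.39, against -0.0018 over all genes tested. DESeq2 called 2 members, Per1 (adjusted p = 3.63e-06) and Nr1d1, and called 1.78% of genes. The members were chosen with earlier results of these data known. Here and in the comparisons below, their counts beside the shares of all genes are therefore a description.

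SBES over untrained asks what stimulation changed after injury. In this comparison edgeR called 0 of 10 members and 0% of the genes tested, DESeq2 called 0 members and 0.191% of genes, and limma on FPKM called 0 of the 7 members it could test. At an unadjusted p under 0.05, which 5.37% of genes reached, Per1 was higher and Dbp lower in SBES. Libraries did not overlap for 3 members and 10.4% of genes, with Per1 and Nr1d1 higher (5.66% of genes) and Npas2 lower (4.76% of genes). The median log2 fold change of the members was -0.19, with 4 positive and 6 negative.

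Untrained over sham asks what the injury changed. Here edgeR called 0 members and 0% of genes, DESeq2 0 members and 0.0856% of genes, and limma 0 of 7 members. Of the members 9 of 10 had a positive log2 fold change, with a median of 0.53 against -0.0068 over all genes. An unadjusted p under 0.05 was reached by 5 members, Per1, Nr1d1, Tef, Ciart and Npas2, and by 4.45% of genes tested. The same 5 members had every untrained library above every sham library, against 4.63% of genes, and 0 members lay below, against 5.13% (9.76% in either direction). Marker levels also differed between these groups: 8 of 8 microglia markers (median log2 fold change 0.37) and 7 of 8 endothelium and pericyte markers (0.64) had positive values in untrained over sham, the direction of most members. Negative values were found for 8 of 8 oligodendrocyte (median -0.56), 6 of 6 ependyma (-0.55) and 9 of 10 motor neuron markers (-0.41). The motor neuron sum was lower in every untrained library than in any sham library mainly through Nefh, at 487 CPM in untrained and 982 in sham, and Calca, at 65.8 CPM in untrained and 344 in sham, while Chat averaged 27.8 CPM in untrained and 29.5 in sham. The part of these cells in the members' values was not tested. The comparisons share libraries, so these values are not independent of those above. A single test of any difference among the 3 groups called 0 members with edgeR and 0.101% of genes; 6.9% of genes had an unadjusted p under 0.05, as did 3 members, and Per1 was closest (adjusted p = 0.0613). The fold changes by comparison are plotted for all members.

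**Figure D3:**
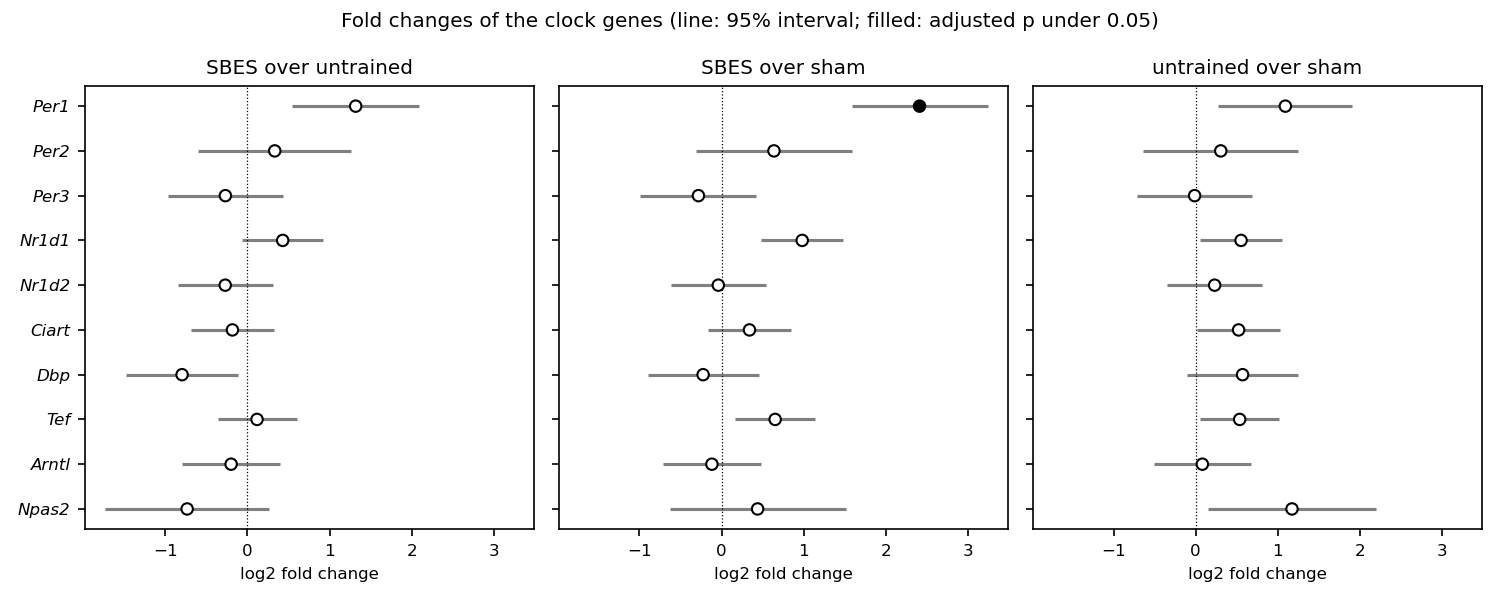
Log2 fold change of each clock gene in SBES over untrained, SBES over sham and untrained over sham from the edgeR fit, with unadjusted 95% intervals as lines. The filled point is Per1 in SBES over sham, at 2.41, the one call, and Arntl lies near 0 in each panel.

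The other genes of the clock were taken from a list of 17, all of which were tested. They hold the CLOCK subunit, the CRY repressors, the ROR activators of Arntl, the D-box repressor Nfil3 and the kinases and ligases that set PER and CRY stability. None of the 17 passed edgeR in any comparison, and DESeq2 called 1, Nfil3 in SBES over sham, where it called 1.78% of genes. Nfil3 stood at 14.5, 12.5 and 15.9 CPM in SBES, 7.65, 7.17 and 8.67 in untrained and 5.76, 6.40 and 8.55 in sham. SBES libraries lay above all others, with a log2 fold change of 0.87 over untrained (SE 0.25; edgeR adjusted p = 0.749) and 1.04 over sham (SE 0.25; edgeR adjusted p = 0.126, DESeq2 adjusted p = 0.0228). An unadjusted p under 0.05 in SBES over sham was reached by 4 of the 17, against 9.31% of genes. Besides Nfil3 these include Cry2 (log2 fold change 0.62, SE 0.25) and Csnk1e, a kinase that phosphorylates PER (0.63, SE 0.24). In untrained over sham such a p was reached by 1 of the 17, Bhlhe40, a repressor at E-boxes (0.54, SE 0.23), against 4.45% of genes. In SBES over untrained 1 of the 17, Nfil3, reached it, against 5.37% of genes. Both single hits lie near the share of all genes. Clock itself stood at 15.2, 6.16 and 6.61 CPM in SBES, 10.8, 11.3 and 6.45 in untrained and 12.4, 7.54 and 9.80 in sham, with overlap throughout. The median log2 fold change of the list was 0.30 in SBES over sham, 0.19 in SBES over untrained and 0.18 in untrained over sham.

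Of 8 clock-controlled output genes 1 rose in SBES over sham, where edgeR called 0.346% of all genes tested, the tetraspanin gene Tspan4, at 178, 197 and 433 CPM in SBES, 78.7, 101 and 152.5 in untrained and 54.2, 60.2 and 44.0 in sham (log2 fold change 2.35, SE 0.37, in SBES over sham; edgeR adjusted p = 0.0277). The groups did not overlap, and SBES 3 was the highest library. The call ended without SBES 3 (adjusted p = 0.0782), sham 1 (0.0585), sham 2 (0.105) or sham 3 (0.186). Usp2, a ubiquitin protease, stood at 33.8, 43.8 and 49.0 CPM in SBES, 23.9, 24.8 and 37.6 in untrained and 23.3, 21.4 and 21.8 in sham (0.93, SE 0.24, in SBES over sham; edgeR adjusted p = 0.157, DESeq2 adjusted p = 0.0383). Por, the electron donor of cytochrome P450 enzymes, was at 0.98 (SE 0.30). The list's median log2 fold change was 0.22 in SBES over sham, 0.19 in SBES over untrained and 0.14 in untrained over sham.

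Per1 responds in other tissues to cAMP and to glucocorticoids, and companion genes of each input were listed. These lists were chosen with earlier results of these data known. Their counts beside the shares of all genes are a description and do not test an input. Of 8 companions of the cAMP and CREB input 7 were tested, Fosb being too low, and 0 passed edgeR or DESeq2 in any comparison. All 7 had positive log2 fold changes in SBES over untrained (median 0.61) and in SBES over sham (median 0.85). Of all 15893 genes tested 8219 and 7911 had positive values in these comparisons, with medians of 0.0154 and -0.0018. In SBES over untrained 2 of the 7 had an unadjusted p under 0.05, Sik1 (1.91, SE 0.48) and Egr1 (1.38, SE 0.39), against 5.37% of all genes. Such a p was reached by 3 of the 7 in SBES over sham, against 9.31% of genes, and by 0 in untrained over sham, against 4.45%. Of the 8 glucocorticoid-inducible companions 4 rose in SBES over sham, Ddit4 (2.36, SE 0.30), Klf9 (1.42, SE 0.24), Zbtb16 (2.73, SE 0.48) and Cdkn1a (3.53, SE 0.61), all with edgeR adjusted p between 0.0149 and 0.0386, and none fell, against 0.346% of all genes called. DESeq2 called 6 of the 8, adding Fkbp5 (adjusted p = 2.488e-05) and Sgk1 (adjusted p = 0.02135), against 1.78% of all genes. These calls ended without SBES 3, sham 2 or sham 3 for all 4 genes, at adjusted p of 0.0586 to 0.23, without sham 1 for Klf9 (0.0651), Zbtb16 (0.0651) and Cdkn1a (0.0728), and without untrained 2 for Klf9 (0.0521) and Zbtb16 (0.0624). The list's median log2 fold change was 2.37 in SBES over sham, 1.34 in SBES over untrained and 0.80 in untrained over sham. In SBES over sham neither edgeR nor DESeq2 called Mt2 (2.18, SE 0.59) or Tsc22d3 (0.72, SE 0.46), and the libraries overlapped for Tsc22d3. Untrained over sham gave -0.007 for Tsc22d3 (SE 0.45). In SBES over untrained edgeR called 0 of the 8 and 0% of all genes, 6 had an unadjusted p under 0.05, against 5.37% of all genes, and DESeq2 called 2, Ddit4 and Zbtb16, against 0.191% of all genes. Ddit4 and Cdkn1a are known to respond to cellular stress as well.

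**Figure D4:**
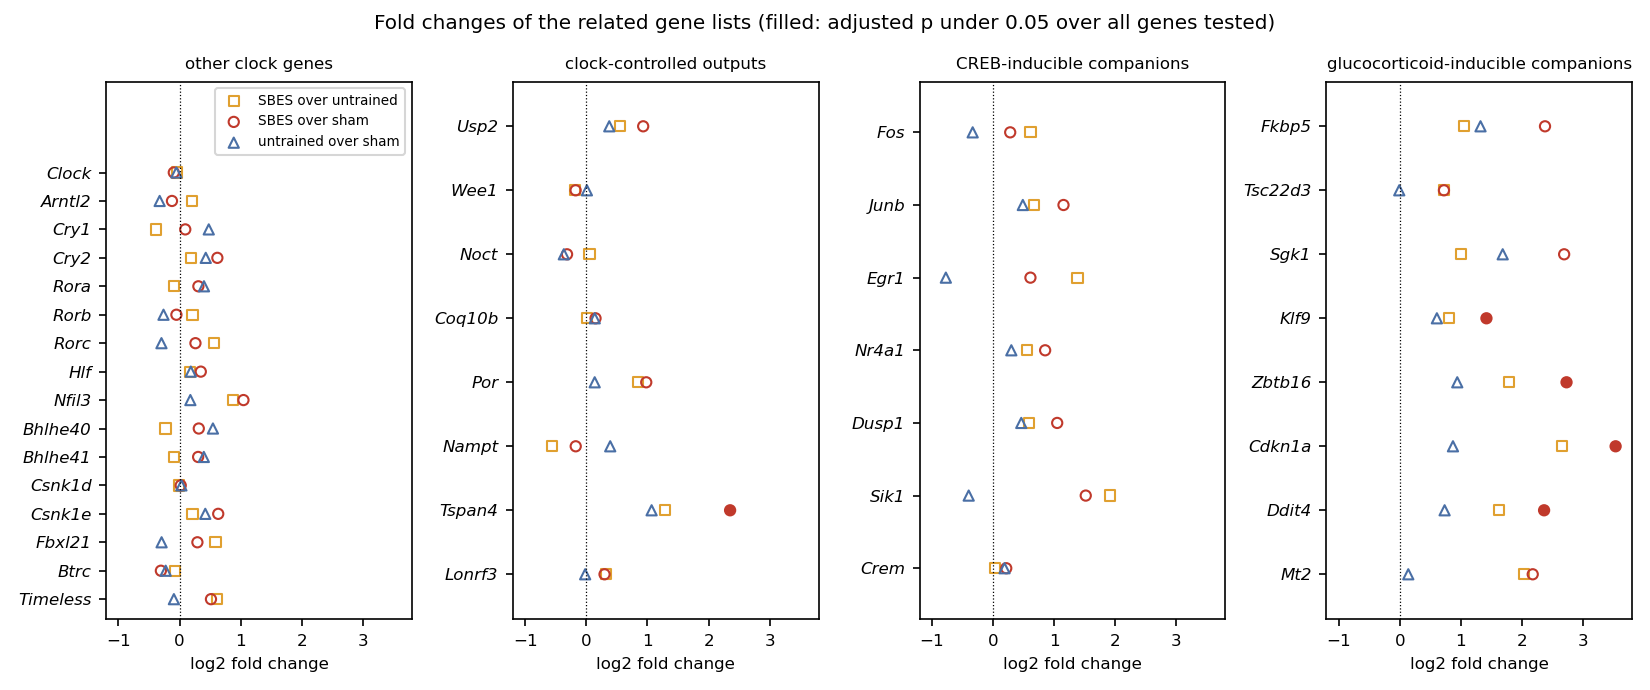
Log2 fold changes of the reported genes of 4 related gene lists in SBES over untrained (squares), SBES over sham (circles) and untrained over sham (triangles), with filled symbols for an edgeR adjusted p under 0.05. Filled circles mark Tspan4 among the clock-controlled outputs and Klf9, Zbtb16, Cdkn1a and Ddit4 among the glucocorticoid-inducible companions.

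Genes with the most similar pattern were sought for Per1, Dbp and Arntl among 4808 genes with a mean of at least 5 FPKM, by Pearson's r of log2(CPM + 1) over the 9 libraries, as a description. Closest to Per1 were Slc7a5, an amino acid transporter (r = 0.962), Rnf208 (0.957), Ddit4 (0.952), Hid1 (0.931) and Klf9 (0.929). Ddit4 and Klf9 were also on the glucocorticoid-inducible list, which was chosen with earlier results of these data known. Both were called in SBES over sham like Per1, so their high r is no separate result, and an input was not tested. Slc7a5 averaged 39.1 CPM in SBES, 25.4 in untrained and 15.3 in sham. Closest to Dbp were Exosc2 (0.959), Nit2 (0.950), Grap (0.940), Acaa2 (0.938) and Tmed1 (0.919), each with its highest group mean in untrained. Arntl was followed most closely by Aldoc, an aldolase gene of astrocytes (0.901), Tmem189 (0.894), Rnf11 (0.885), Slc25a46 (0.880) and Abhd17b (0.871), over a narrow range of levels.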

How the data were processed

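The data are Smart-seq2 libraries of labelled, aspirated mouse motoneurons, 3 per group. The aligner was Hisat2 2.0.1 and the counter HTSeq 0.6.1 on paired-end reads, per the labels' protocols, and mm10 is named as build in the submitters' processing notes. Neither annotation release nor strand setting is given in the sources. A single file was deposited by the authors, with whole-number counts and FPKM per library, per the file headers, and FPKM recomputed from counts and exonic length agreed within 0.006 for 100% of values.

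Genes were filtered with filterByExpr (minimum count 10), which left 15893 genes and over 99% of counts per library. All 9 libraries entered 1 edgeR 4.0.16 quasi-likelihood fit in R 4.3.3, TMM scaled, with no covariate, and a call is an adjusted p (Benjamini-Hochberg, over all genes tested) under 0.05. Alternatives were DESeq2 1.42.0, limma 3.58.1 on log2(FPKM + 1) or log2(FPKM + 0.1) of genes with at least 1 FPKM in 3 libraries, RLE scaling, no filter, a replicate block, only the 2 groups compared, and left-out libraries. The scripts were tested on simulated data. No 2 libraries had identical counts. Deviations of same-numbered libraries from their group means correlated at 0.33, 0.192 and 0.186 between SBES and sham. They correlated at 0.441, 0.0159 and 0.28 between untrained and sham, and at 0.261, -0.171 and 0.308 between SBES and untrained. Any pairing by number rests on the data alone, and the reported fit has none. The replicate block entered all 9 libraries in 1 fit, and thus every comparison. Coordinates are those of the deposited table and equal GENCODE M21.

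All members are named. Of each other list, called genes and up to 4 of smallest p per comparison are named. Clock and Tsc22d3 were added after their values were seen. The 5 most similar genes are named for Per1, Dbp and Arntl. Members and lists were chosen with earlier results of these data known. Some genes of the lists are counted but not reported here by name. Counting error is not separated from PCR copies.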

Additional observations from a re-analysis of the deposited data

How the results depend on the processing

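The log2 fold changes of the members kept their direction and their side of the threshold in 462 of 491 values over the alternatives. The Per1 call in SBES over sham ended in 6, at values of 0.925 on log2(FPKM + 1) (adjusted p = 0.0706), 2.01 on log2(FPKM + 0.1) (adjusted p = 0.127) and 2.38 to 2.59 without single libraries, and Nr1d1 was called in 4. Directions turned in 19 values, all of members without a call. For Per3 in untrained over sham (-0.0124) the value was 0.00507 with RLE scaling, 0.0432 without the filter, 0.00778 with DESeq2, 0.10 and 0.173 with limma, 0.017 with only these groups, 0.104 without the replicate 1 libraries, and -0.221 to 0.253 over left-out libraries. The others were Arntl in untrained over sham without untrained 3 (-0.0143, and up to 0.171 over left-out libraries), Per2 in SBES over untrained without SBES 1 (-0.221, and up to 0.562) and without the replicate 1 libraries (-0.322), Tef in SBES over untrained with limma (-0.0784 and -0.0902), Nr1d2 in SBES over sham without SBES 3 (0.173), sham 1 (0.0915) or sham 2 (0.0119, and down to -0.27), and Dbp in SBES over sham without SBES 1 (0.00455, and down to -0.412). The causes were not tested.

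Counts of called genes in untrained over sham were 0 as reported and over left-out libraries, 134 without the filter, 14 with DESeq2, 1 with limma on log2(FPKM + 0.1), 4 with the replicate block and 47 without the replicate 1 libraries. In SBES over untrained they were 0, 186, 29 and, with limma on log2(FPKM + 1), 1, and 13 without the replicate 1 libraries, and 0 to 1 over left-out libraries. In SBES over sham they were 55, 517, 281, 19 and 17 with limma, 132 with the replicate block, 581 without the replicate 1 libraries and 0 to 86 over left-out libraries, 86 without SBES 1, 4 without SBES 3, 24 without untrained 2, 29 without sham 1, 6 without sham 2 and 0 without sham 3. For any difference among the groups they were 16, 537 without the filter, 2 and 1 with limma, 72 with the replicate block, 364 without the replicate 1 libraries and 0 to 28 over left-out libraries. Called members in SBES over sham numbered 1, or 2 without the filter, with DESeq2, with the replicate block or without the replicate 1 libraries, 0 with limma and 0 to 1 over left-out libraries. For any difference they numbered 0, or 1 without the filter or with the replicate block, 2 without the replicate 1 libraries and 0 to 1 over left-out libraries. Other clock genes called in SBES over sham numbered 0, or 1 with DESeq2. The replicate block changed no other call of a member. For 7 list genes in SBES over sham, alternatives added after seeing the data kept every direction, but of 17 alternatives each the call ended in 6 for Tspan4, 7 for Klf9, 7 for Zbtb16, 5 for Cdkn1a and 3 for Ddit4. Beside left-out libraries these were both limma settings for Tspan4, Klf9 and Zbtb16 and that on log2(FPKM + 0.1) for Cdkn1a. Nfil3 gained a call in 1 and Usp2 in 2. Per2, Arntl and Npas2 fell below the limma filter, and Npas2 was not tested in SBES over sham with only those groups.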
